A study of Homo sapiens with 8 samples.

Results

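A group of 10 WNT signaling genes was followed through the RNA-seq libraries of 2 triple-negative breast cancer (TNBC) cell lines: the secreted inhibitors DKK1 and SFRP1, the ligands WNT5A and WNT5B, the kinase CSNK1E, the effector CTNNB1 (β-catenin), the DNA-binding factors TCF7, TCF7L2 and LEF1, and the feedback target AXIN2. They were picked by symbol from the raw count table and are 10 of 55679 gene identifiers in it, each with 1 identifier. Levels are in CPM, the counts on a gene scaled to a library's counts on all genes. A mean over the 8 libraries of 1 CPM or more was reached by 14030 genes of the table and by 9 of the 10, with LEF1 below it. The genes were chosen with their values in all 8 libraries already known, so those values are given as a description, without a test.

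MDA-MB468 and BT549 are established human TNBC lines. Both parental and CE cells were sequenced for each line, untreated and after 6 hours of Acetalax at 1 μmol/L, which gives 8 libraries with 1 library per condition. Acetalax (oxyphenisatin acetate) is a diphenolic laxative with activity against cancer cells. CE stands for chronic exposure: these cells were grown in Acetalax raised from 0.2 to 40 μmol/L, did not grow at 51.2 μmol/L, and were kept free of the drug for 2 weeks before the experiment. No condition has a second library, each CE library was compared with 1 parental library of its line and treatment, and no vehicle is named for the controls. Poly(A)-selected RNA was used, and each library had between 42261122 and 54241728 counts on genes, so that 1 CPM stands for 42.3 to 54.2 counts.

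The lines differ in their markers. The summed level of 5 epithelial genes (EPCAM, CDH1, KRT8, KRT18, KRT5) was 4390 to 7402 CPM in MDA-MB468 and 5.38 to 83.3 CPM in BT549, and that of 4 mesenchymal genes (VIM, CDH2, FN1, ZEB1) was 15.4 to 55.5 CPM in MDA-MB468 and 1624 to 3353 CPM in BT549. PGR was listed at 0 in all MDA-MB468 libraries and was at most 0.627 CPM in BT549. ESR1 was at 3.50 to 5.15 CPM in MDA-MB468 and at most 0.184 CPM in BT549, while ERBB2 was at 41.2 CPM or more in every library. Of 4 markers of other cell types, CD3E was at 0 throughout and the sum was at most 8.12 CPM, nearly all of it CDH5 in MDA-MB468.

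In the canonical WNT pathway a secreted WNT ligand binds a Frizzled receptor with LRP5 or LRP6, the complex that destroys β-catenin is held back, and β-catenin joins TCF and LEF factors on DNA to switch on targets such as AXIN2. AXIN2 is itself part of the destruction complex, and DKK1, which blocks LRP5 and LRP6, is also a known target, so both close negative feedback loops. WNT5A and WNT5B mostly signal through other branches, which act on cell shape and movement and can oppose the β-catenin branch. In TNBC both branches have been studied for their part in migration and in stem-like cells.

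DKK1 had the highest Acetalax ratio of the group in each of the 4 pairs, and the bases before its start site are therefore shown. The 250 bases upstream of the DKK1 start in RefSeq (GRCh38.p14, plus strand, chr10:52314031-52314280) are printed with the core of the TCF/LEF motif in capitals, CTTTGA or its reverse complement TCAAAG.
DKK1: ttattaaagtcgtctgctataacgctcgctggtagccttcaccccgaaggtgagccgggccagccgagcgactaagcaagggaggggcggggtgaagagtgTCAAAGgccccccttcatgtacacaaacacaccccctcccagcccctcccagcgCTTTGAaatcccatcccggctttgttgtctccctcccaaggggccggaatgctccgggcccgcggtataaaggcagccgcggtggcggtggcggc
The motif in this 6-base form occurs 149 and 95 bases before the start. Other forms of the core were not searched and are not marked. Windows of this length hold the searched form at least 1 time in 11.2% of 35116 RefSeq promoters and at least 2 times in 0.977%. The 8 of these 10 genes that are in the RefSeq table have 14 windows, of which the DKK1 window is the 1 that holds it. SFRP1 and AXIN2 are not in it and were not searched. The match is of letters and says nothing about which factor was bound.

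Per length, the genes spanned a wide range of levels. The mean FPKM (CPM per kilobase of merged exons) over the 8 libraries was 62.0 for DKK1, 42.4 for SFRP1, 34.1 for CTNNB1, 20.2 for WNT5B and 10.8 for CSNK1E, and then 2.91 for TCF7, 2.51 for TCF7L2, 1.95 for AXIN2, 1.24 for WNT5A and 0.009 for LEF1. Neighbors in this order overlapped in their library values, except that CSNK1E, at 7.06 to 16.2 FPKM, lay above TCF7, at 1.94 to 4.17 FPKM, and LEF1 lay below WNT5A, whose lowest value was 0.583 FPKM. DKK1 ran from 4.89 to 104 FPKM and WNT5B from 0.150 to 45.7 FPKM, while CTNNB1 stayed within a 2.00-fold range.

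DKK1 (ENSG00000107984, hg19 chr10:54074056-54077802, plus strand) is the Dickkopf protein that takes LRP5 and LRP6 out of action. In MDA-MB468 parental cells it was at 10.9 CPM in the control and 203 CPM after Acetalax, and in MDA-MB468 CE cells at 51.2 and 229 CPM. In BT549 parental cells it was at 102 and 229.6 CPM, and in BT549 CE cells at 43.4 and 232 CPM. Every treated library was above every control library, also under both other scalings tried. DKK1 has 227 exon bases in common with PRKG1-AS1 on the other strand, a gene with 5 to 77 counts per library. The 4 treated libraries lay within a 1.14-fold range, while the 4 controls spread over a 9.43-fold range. In bulk RNA, fewer cells of one kind and less RNA per cell cannot be told apart, here and in every value that follows.

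As a log2 ratio of Acetalax to control (0.1 CPM added to each value) DKK1 was at 4.21 in MDA-MB468 parental, 2.16 in MDA-MB468 CE, 1.16 in BT549 parental and 2.41 in BT549 CE cells. These are 18.5-fold, 4.48-fold, 2.24-fold and 5.32-fold. Exact 95% intervals for the counts behind them, which cover counting error and no spread between cultures, ran from 4.10 to 4.35, 2.10 to 2.23, 1.11 to 1.22 and 2.35 to 2.48. Among the 14030 genes, 8 had a higher ratio than DKK1 in MDA-MB468 parental cells, 33 in MDA-MB468 CE, 168 in BT549 parental and 55 in BT549 CE cells. A log2 ratio of at least 1 in all 4 pairs was met by 23 genes, 0.164% of those measured, and DKK1 is the 1 of the 10 among them. The order of the ratios follows the order of the controls inversely, since the treated levels were near each other and the controls were not.

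**Figure D1:**
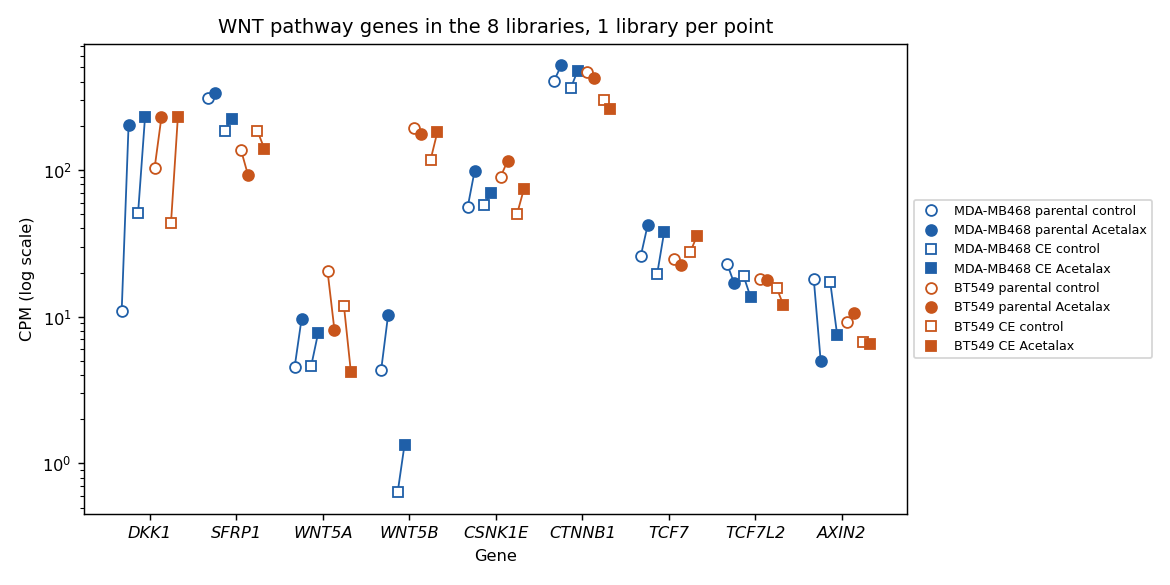
CPM (log axis) of the 9 genes with a mean of 1 CPM or more, with 1 point per library and a line from each control (open) to its treated library (filled). Blue stands for MDA-MB468 and orange for BT549, circles for parental and squares for CE cells. The filled DKK1 points sit between 203 and 232 CPM, above all open ones.

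SFRP1 (ENSG00000104332, hg19 chr8:41119481-41167016, minus strand) codes for a secreted decoy with a Frizzled-like domain that binds WNT proteins. Its level was 309.8 CPM in the MDA-MB468 parental control and 335 CPM after Acetalax, and 184 and 224 CPM in MDA-MB468 CE cells. In BT549 it was 137 and 92.6 CPM in parental cells and 184 and 139.7 CPM in CE cells. The log2 ratio was 0.11 and 0.29 in MDA-MB468 and -0.56 and -0.40 in BT549, for parental and CE cells in that order. Both MDA-MB468 pairs were thus higher with the drug and both BT549 pairs lower, by less than 1 on the log2 scale. Per length, SFRP1 stood at 13.4 times DKK1 in the MDA-MB468 parental control and at 0.774 times after Acetalax. In CE cells of that line the ratio went from 1.69 to 0.458, in BT549 parental cells from 0.626 to 0.189, and in BT549 CE cells from 1.99 to 0.283. The inhibitor with the higher FPKM was SFRP1 in 3 of the 4 controls and DKK1 in all 4 treated libraries.

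WNT5A (ENSG00000114251, hg19 chr3:55499743-55523973, minus strand) is a ligand of the branches that do not use β-catenin. In MDA-MB468 it was at 4.57 CPM in the parental control and 9.72 CPM after Acetalax, and at 4.60 and 7.70 CPM in CE cells. In BT549 it was at 20.4 and 8.07 CPM in parental cells and at 11.7 and 4.17 CPM in CE cells. The lines went opposite ways: the treated library was 2.10-fold and 1.66-fold higher in MDA-MB468 and 2.51-fold and 2.77-fold lower in BT549. The log2 ratios were 1.07 (counting interval 0.86 to 1.33), 0.73 (0.49 to 1.00), -1.33 (-1.52 to -1.16) and -1.47 (-1.72 to -1.27). The direction pattern, higher in both MDA-MB468 pairs and lower in both BT549 pairs, was shared by 10% of the 14030 genes. Before treatment WNT5A was highest in BT549 parental cells, and after it the 4 libraries lay between 4.17 and 9.72 CPM.

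WNT5B (ENSG00000111186, hg19 chr12:1639057-1756409, plus strand) is the close relative of WNT5A. In BT549 it was at 194 CPM in the parental control, 177 CPM after Acetalax, 117 CPM in the CE control and 182 CPM in treated CE cells. In MDA-MB468 it was at 4.36, 10.3, 0.634 and 1.35 CPM in the same order, the last 2 values resting on 28 and 64 counts. The lowest BT549 level lay above the highest MDA-MB468 level. The log2 ratio to control was 1.22 and 0.98 in MDA-MB468 parental and CE cells (counting interval of the latter 0.42 to 1.78) and -0.13 and 0.64 in BT549. CE cells of MDA-MB468 had 6.07-fold less WNT5B than parental cells without the drug and 7.19-fold less with it. Only the BT549 parental pair of the 4 had a ratio below 0.

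Within the WNT family WNT5B took most of the message in BT549. Of the summed FPKM of the WNT genes in a library, WNT5B made up 82.4% in the BT549 parental control, 87.5% after Acetalax, 87.9% in the CE control and 93.8% in treated CE cells, while WNT5A made up 5.14, 2.37, 5.24 and 1.27%. In MDA-MB468 the same sum was led by WNT6, with 48.5 to 71.2%, and WNT5B and WNT5A each made up at most 1.45%. The ratio of WNT5B to WNT5A per length was 16.0 and 16.8 in the BT549 controls and 37.0 and 73.8 in the treated libraries. In MDA-MB468 it was 1.61 and 1.79 in parental cells and 0.233 and 0.295 in CE cells. WNT5A was thus the more abundant of both in MDA-MB468 CE cells and the less abundant in the other 6 libraries.

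**Figure D2:**
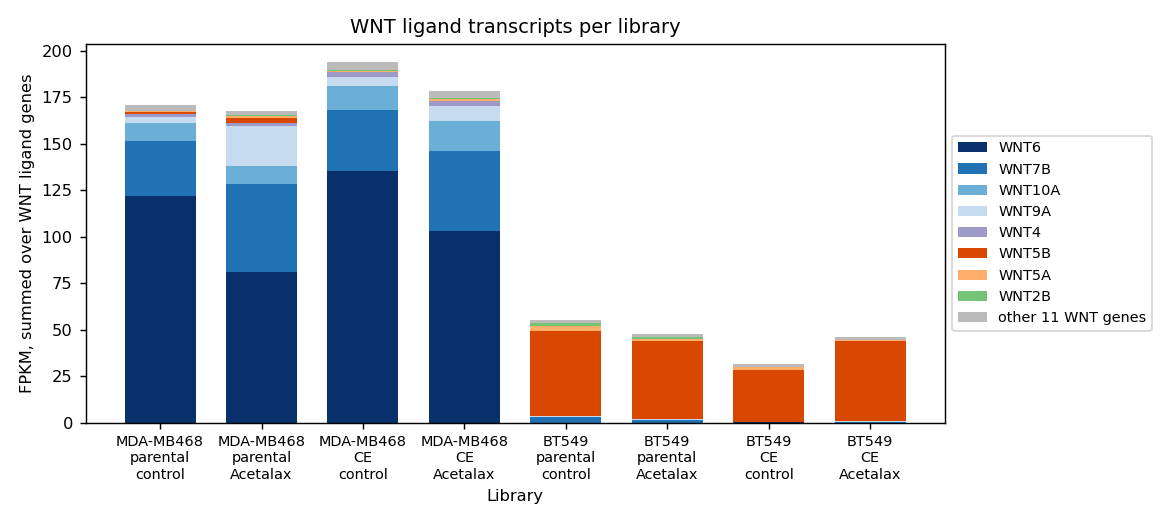
FPKM of the WNT ligand genes, stacked by gene, with 1 bar per library. The bars reach 167 to 194 FPKM in MDA-MB468, mostly WNT6 and WNT7B, and 31.3 to 55.4 FPKM in BT549, of which WNT5B makes up 82.4 to 93.8%.

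CSNK1E (ENSG00000213923, hg19 chr22:38686697-38794527, minus strand) codes for casein kinase 1 epsilon, which phosphorylates Dishevelled and passes on the WNT signal. The level was 56.0 and 98.8 CPM without and with Acetalax in MDA-MB468 parental cells, 57.8 and 70.1 CPM in MDA-MB468 CE cells, 89.8 and 115 CPM in BT549 parental cells, and 50.1 and 74.3 CPM in BT549 CE cells. All 4 treated libraries were above their own control. The log2 ratios were 0.82, 0.28, 0.36 and 0.57 in that order. A ratio above 0 in all 4 pairs was found for 11.8% of the 14030 genes, and DKK1 and CSNK1E are the 2 of the 10 with it. An hg19 GENCODE annotation holds a longer gene, TPTEP2-CSNK1E, with 1316 exon bases in common with CSNK1E. It has no entry in the deposited counts, and how reads in the shared bases were counted is not known.

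CTNNB1 (ENSG00000168036, hg19 chr3:41236328-41301587, plus strand) codes for β-catenin. It stood at 407 and 517 CPM without and with the drug in MDA-MB468 parental cells and at 360.3 and 474 CPM in CE cells of that line. BT549 had 464 and 425 CPM in parental cells and 302 and 259 CPM in CE cells. The log2 ratios were 0.35 and 0.40 in MDA-MB468 and -0.13 and -0.22 in BT549, so the sign again differed between the lines at a size under 1. The BT549 ratios lay near the median of all genes measured in those pairs, -0.10 and -0.20. Under TMM scaling they were -0.05 and -0.07, so a fall of CTNNB1 apart from that shift is not shown. These are message levels, and β-catenin is regulated mainly through the stability of the protein, which was not measured here.

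TCF7 (ENSG00000081059, hg19 chr5:133450402-133487556, plus strand) codes for TCF-1, and TCF7L2 (ENSG00000148737, hg19 chr10:114710009-114927437, plus strand) for TCF-4, both partners of β-catenin on DNA. TCF7 was at 25.9 and 42.1 CPM without and with Acetalax in MDA-MB468 parental cells and at 19.6 and 37.6 CPM in MDA-MB468 CE cells. The BT549 values were 24.8 and 22.4 CPM in parental cells and 27.4 and 35.5 CPM in CE cells. The log2 ratios were 0.70, 0.94, -0.14 and 0.37 in that order. TCF7 shares 210 exon bases with SKP1 on the other strand, which had 396 to 551 counts per library.

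TCF7L2 was lower with the drug in MDA-MB468, at 22.8 and 16.9 CPM in parental and 18.8 and 13.6 CPM in CE cells. BT549 had 18.0 and 17.7 CPM in parental and 15.8 and 11.9 CPM in CE cells. The log2 ratios were -0.43, -0.47, -0.02 and -0.40, and the third, whose counting interval of -0.17 to 0.12 includes 0, was above 0 under TMM and DESeq2 scaling. Its exons share 300 bases with a gene on the other strand that had at most 12 counts per library. TCF7 and TCF7L2 had ratios of opposite sign in 3 of the 4 pairs. Of the summed FPKM of TCF7, TCF7L1, TCF7L2 and LEF1, TCF7 made up 11.5 and 16.8% without and with Acetalax in MDA-MB468 parental cells and 12.7 and 25.2% in CE cells of that line. For BT549 the shares were 36.1 and 35.9% in parental and 33.4 and 45.5% in CE cells. TCF7L1 held 61.2 to 73.4% of that sum in MDA-MB468 and 21.3 to 37.6% in BT549.

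LEF1 (ENSG00000138795, hg19 chr4:108968701-109090112, minus strand), the lymphoid enhancer-binding factor, was near the limit of counting. It had 0 counts in all 4 MDA-MB468 libraries, which with a limit of 3 counts allows up to 0.068 CPM in the shallowest of them. In BT549 it had 6, 6, 3 and 2 counts in the parental control, parental treated, CE control and CE treated library. Within a line, no difference between treated and control or between CE and parental libraries was detectable at this depth.

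AXIN2 (ENSG00000168646, hg19 chr17:63524681-63557765, minus strand) is widely read as a measure of β-catenin-driven transcription. Its merged exons share 1316 bases with a gene on the same strand (ENSG00000266076) that had 0 to 2 counts per library, and reads in the shared bases may not be counted for either gene. In MDA-MB468 it had 18.1 CPM in the parental control and 4.98 CPM after Acetalax, and 17.3 and 7.55 CPM in CE cells. In BT549 it was at 9.25 and 10.6 CPM in parental cells and at 6.75 and 6.51 CPM in CE cells. The MDA-MB468 treated libraries were 3.57-fold and 2.27-fold below their controls, with log2 ratios of -1.84 (counting interval -2.07 to -1.65) and -1.18 (-1.38 to -1.01). The BT549 ratios were 0.19 and -0.05, and both counting intervals, to the second decimal -0.00 to 0.39 and -0.27 to 0.17, include 0, and the second ratio was above 0 under TMM and DESeq2 scaling. A ratio of -1 or less in both MDA-MB468 pairs was found for 219 of the 14030 genes, 1.56%. In MDA-MB468 parental cells 65 genes had a lower ratio than AXIN2, and in MDA-MB468 CE cells 213.

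**Figure D3:**
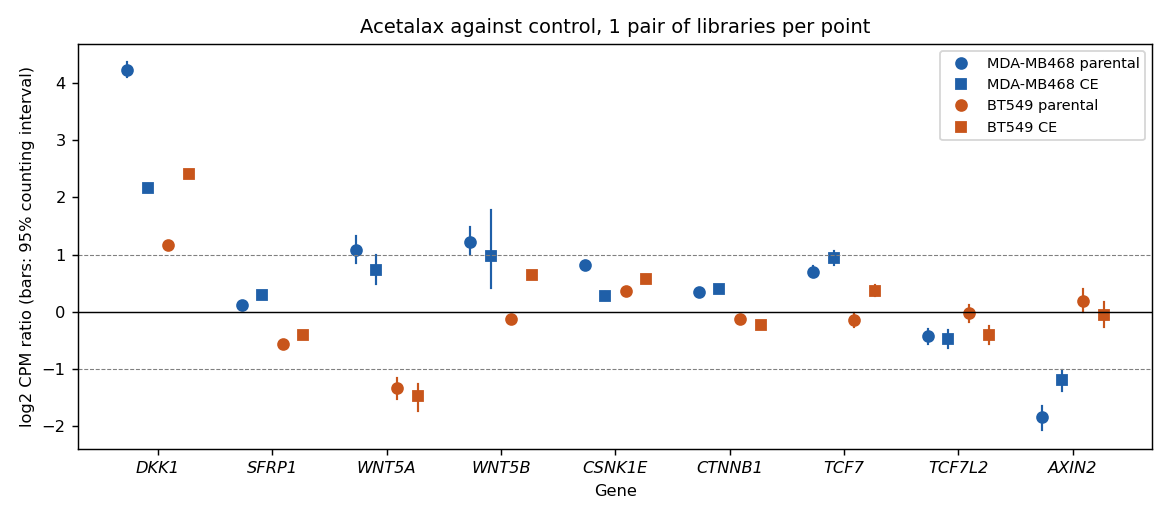
Log2 ratio of Acetalax to control for 9 of the genes in the 4 backgrounds (circles parental, squares CE, blue MDA-MB468, orange BT549), with exact 95% counting intervals as bars. DKK1 is above 1 in all 4, WNT5A is above 0 in MDA-MB468 and below 0 in BT549, and AXIN2 is below -1 in MDA-MB468 and near 0 in BT549.

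By pair, 3 of the 10 genes were higher and 1 was lower by at least 1 on the log2 scale in MDA-MB468 parental cells, where 4.65% of the 14030 genes were higher and 3.99% lower by that much. In the MDA-MB468 CE pair 1 was higher and 1 lower, beside 2.21% and 2.58% of all genes. The BT549 parental pair also had 1 higher and 1 lower, beside 1.8% and 2.45%, and so did the BT549 CE pair, beside 4.05% and 12.4%. The genes past 1 were DKK1 in all 4 pairs, WNT5A in both parental pairs and in BT549 CE cells, WNT5B in MDA-MB468 parental cells, and AXIN2 in both MDA-MB468 pairs. As differences of log2(FPKM + 1), which shrink the changes of low genes, DKK1 in all 4 pairs and AXIN2 in MDA-MB468 parental cells stayed past 1, and the other ratios did not. The median over the 9 genes above 1 CPM was 0.70, 0.40, -0.13 and -0.05 in the 4 pairs, beside -0.10, -0.05, -0.10 and -0.20 over all 14030 genes. These counts came from the values that chose the genes and carry no test. Scaling by TMM raised the median of all genes by 0.15 in the BT549 CE pair, and by less than 0.08 in the other 3 Acetalax pairs, so ratios of the BT549 CE pair can be read against that shift.

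CE cells were set against parental cells of the same line, first without the drug. In MDA-MB468, DKK1 was 4.68-fold higher in the CE control than in the parental control and WNT5B 6.07-fold lower, the 1 gene of the 10 past 1 in each direction, beside 2.49% of all genes higher and 2.12% lower. In BT549, DKK1 was 2.36-fold lower in the CE control, the 1 gene past 1, beside 7.71% of all genes higher and 5.61% lower. DKK1 therefore differed in opposite directions between the lines before treatment.

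With Acetalax in both libraries of the pair the log2 ratio of DKK1 was 0.18 in MDA-MB468 and 0.01 in BT549. WNT5B was again past -1 in MDA-MB468 (-2.85, counting interval -3.33 to -2.56), 1 gene lower and 0 higher, beside 3.09% and 3.04% of all genes. In the treated BT549 pair 0 of the 10 were past 1 in either direction, beside 6.17% of all genes higher and 8.78% lower. TMM scaling raised the median of all genes by 0.12 in that last pair. The CE pairs share their libraries with the Acetalax pairs, so a high control of DKK1 enters both kinds of ratio.

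SFRP1 also went opposite ways between the lines, at -0.75 and -0.58 in MDA-MB468 without and with the drug and 0.43 and 0.59 in BT549. TCF7 was at -0.40 and -0.16 in MDA-MB468 and 0.15 and 0.66 in BT549. CTNNB1 and TCF7L2 were below 0 in all 4 CE pairs, from -0.71 to -0.12 for CTNNB1 and from -0.56 to -0.18 for TCF7L2. WNT5A was below 0 in 3 pairs, at -0.33 in treated MDA-MB468 cells and -0.79 and -0.94 in BT549, and at 0.01 in the MDA-MB468 controls, where the counting interval, -0.27 to 0.29, includes 0. CSNK1E was at 0.04 and -0.50 in MDA-MB468 and -0.84 and -0.63 in BT549. The 0.01 of WNT5A and the 0.04 of CSNK1E were below 0 under TMM and DESeq2 scaling. AXIN2 was at -0.06 and 0.59 in MDA-MB468 and -0.45 and -0.70 in BT549, so that the treated MDA-MB468 pair was the 1 pair in which CE cells had more of it.

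**Figure D4:**
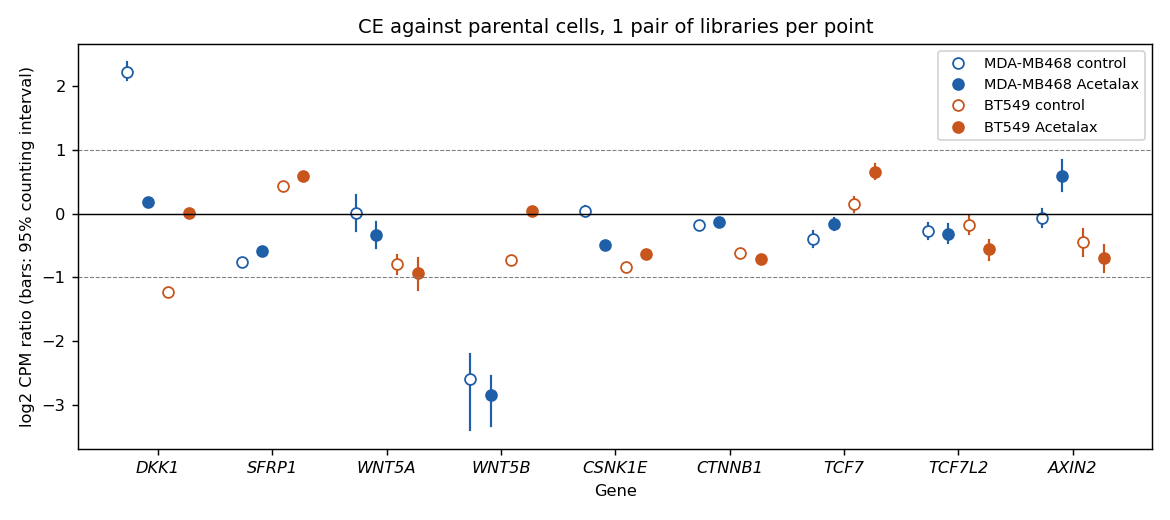
Log2 ratio of CE to parental cells for 9 of the genes in the 4 pairs (blue MDA-MB468, orange BT549, open without and filled with Acetalax), with exact 95% counting intervals as bars. DKK1 lies at 2.23 in MDA-MB468 controls and -1.24 in BT549 controls and near 0 with the drug, and WNT5B is below -2 in both MDA-MB468 pairs.

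The lines were also set side by side, condition by condition, as log2 ratios of BT549 to MDA-MB468. WNT5B was higher in BT549 in all 4 conditions, by 5.44 in parental controls, 4.09 in treated parental cells, 7.32 in CE controls and 6.98 in treated CE cells. The other ligand, WNT5A, was higher in BT549 in both controls (2.13 in parental and 1.33 in CE cells) and lower in both treated conditions (-0.27 and -0.87). DKK1 was 3.23 higher in BT549 for parental controls and between -0.24 and 0.18 in the other 3 conditions. SFRP1 was lower in BT549 in parental controls (-1.18), treated parental cells (-1.85) and treated CE cells (-0.68), and stood at 184 CPM in the CE controls of both lines. AXIN2 was lower in BT549 in both controls (-0.96 and -1.34), higher in treated parental cells (1.07) and at -0.21 in treated CE cells. CSNK1E, CTNNB1, TCF7 and TCF7L2 stayed within 1 of each other between the lines, from -0.90 to 0.68. The levels in all 8 libraries were known when the genes were chosen, so these ratios carry no test.

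The other genes of the pathway came from a list of 118 genes in 10 groups, of which 108 are not among the 10 described and 84 of these had a mean of at least 1 CPM. Acetalax was tested over the 4 backgrounds with each treated library set against its own control, in edgeR (quasi-likelihood), and p-values were adjusted by Benjamini-Hochberg over all 19693 genes tested. CE cells were derived from the parental cells of their line, so the 4 backgrounds are not independent and the test compares these libraries. Of the 91 genes tested, edgeR called 4 higher and 0 lower, beside 5% of all genes, 2.72% higher and 2.27% lower. At an unadjusted p under 0.05 the list had 20 higher and 13 lower, and DESeq2 with adjustment called 13 and 4. FZD8, a Frizzled receptor, rose by 2.27 (SE 0.33, adjusted p = 0.0318), but it was at 0.204 to 0.61 CPM in MDA-MB468. In BT549 it went from 29.6 to 107 CPM in parental and from 10.3 to 85.0 CPM in CE cells. MYC, a target of β-catenin in several tissues, rose by 0.79 (SE 0.12, adjusted p = 0.0323). The receptor FZD5 rose by 0.64 (SE 0.13, adjusted p = 0.0422) and the corepressor TLE1 by 0.60 (SE 0.10, adjusted p = 0.0367). No list gene and no gene of the table was called by edgeR when the MDA-MB468 parental pair was left out (0 of 90 and 0 of 18967, with 3491 of the table at an unadjusted p under 0.05).

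Next to AXIN2, the other targets on the list did not share 1 direction. Of the 11 target genes above 1 CPM, 4 were higher (CCND1, MYC, CD44, ZNRF3) and 3 lower (APCDD1, NKD1, RNF43) in both MDA-MB468 pairs. In both BT549 pairs 4 were higher (MYC, TNFRSF19, NKD1, RNF43) and 4 lower (APCDD1, BMP4, SOX9, NKD2). NKD1 and RNF43 had at most 16 counts per BT549 library, TNFRSF19 at most 5 per MDA-MB468 library, and NKD2 0 there. Of all 84 list genes, 35 were higher and 21 lower in both MDA-MB468 pairs, and 23 and 42 in both BT549 pairs. These shares were not counted over all genes, so they are not read as a result about the list. The median ratio of the 84 genes was 0.05 and 0.07 in the MDA-MB468 pairs and -0.15 and -0.20 in the BT549 pairs, parental and CE. Over all 14030 genes it was -0.10 and -0.05 in MDA-MB468 and -0.10 and -0.20 in BT549. APCDD1 had ratios from -1.76 to -0.36 over the 4 pairs (fitted -0.88, SE 0.23, adjusted p = 0.0663). On the whole list, the genes whose smallest fall over the 4 pairs was the largest were APCDD1 and 2 others. These were the receptor FZD4 (-0.61, SE 0.16, adjusted p = 0.0664) and PRICKLE2 of the planar polarity branch (-0.58, SE 0.16, adjusted p = 0.0752). Of the 8 destruction complex genes, 5 were higher in all 4 pairs, and of the 9 planar polarity genes 4 were lower in all 4 pairs. These were the highest such counts of the 10 groups, picked with the counts in view. Of all 84 list genes, 14 were higher and 14 lower in all 4 pairs. Among all 14030 genes, 11.8% were higher and 29.5% lower in all 4 pairs.

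The response differed between the lines for 4 list genes, by a test of the difference itself (edgeR, treatment by line, adjusted p of 0.0296 to 0.047), beside 1.78% of all genes. The parental and CE pairs of a line share its origin, so this test compares these libraries. The ligand WNT7B was higher with Acetalax in MDA-MB468 (150.7 to 239 and 166 to 220 CPM, parental and CE) and lower in BT549 (15.6 to 8.09 and 0.442 to 0.257 CPM), a difference of -1.42 (SE 0.20). Its values in BT549 CE cells rest on 24 and 13 counts. For the target BMP4 the difference was -1.26 (SE 0.23), and for SOX9 it was -0.96 (SE 0.15). The receptor FZD7 went the other way (1.96, SE 0.31), from 47.8 to 97.9 and from 24.6 to 94.9 CPM in BT549 and from 30.5 to 24.6 and 21.9 to 15.3 CPM in MDA-MB468. The same test was not used for WNT5A and AXIN2, whose difference between the lines helped to choose them. No gene was called for a difference in response between CE and parental cells (0% of 19693 genes, 91 at an unadjusted p under 0.05, and 0 by DESeq2).

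**Figure D5:**
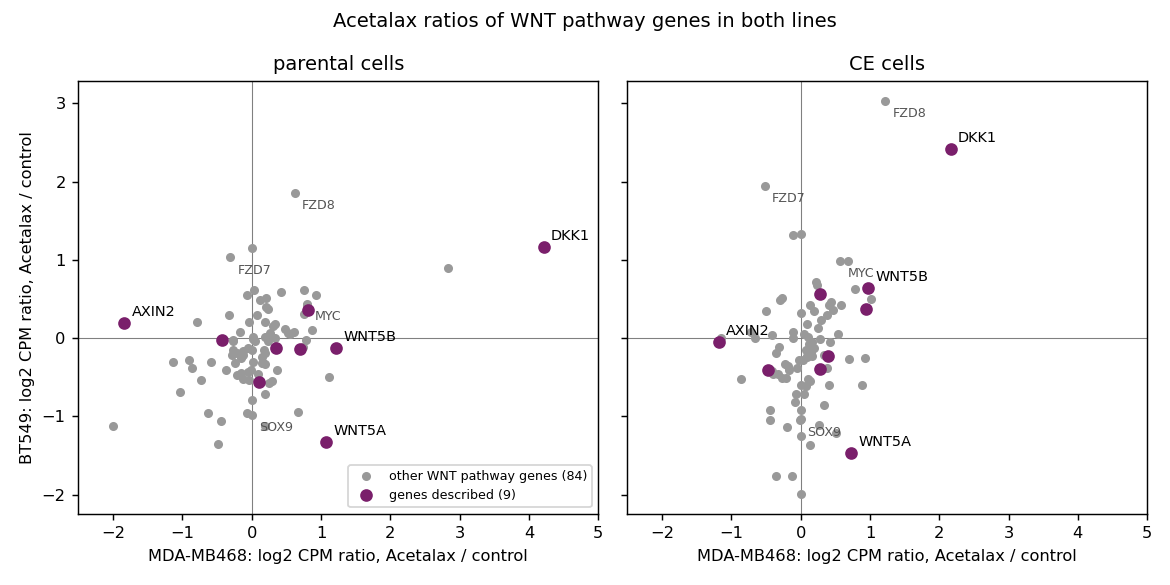
Log2 ratio of Acetalax to control in MDA-MB468 (horizontal) and BT549 (vertical), for parental cells on the left and CE cells on the right, with 1 point per gene. The 9 described genes are purple and the other 84 are grey. DKK1 is above 1 on both axes in both panels, AXIN2 is below -1 in MDA-MB468 and at 0.19 (parental) and -0.05 (CE) in BT549, and WNT5A is above 0 in MDA-MB468 and below -1 in BT549.

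For CE against parental cells over the 4 pairs, edgeR called 0 of the 91 list genes, beside 0.117% of all genes, while 7 were higher and 10 lower at an unadjusted p under 0.05 and DESeq2 called 10. The CE libraries of a line share its CE cells, so this test compares these libraries and not separate derivations of CE cells. List genes were then named whose smallest change over the 4 pairs was the largest. On the higher side these were NKD1 (fitted log2 1.25, SE 0.25, adjusted p = 0.151), FZD4 (0.79, SE 0.18, adjusted p = 0.167) and the ligand acyltransferase PORCN (0.79, SE 0.19, adjusted p = 0.182). On the lower side were LGR6 (-1.28, SE 0.24, adjusted p = 0.137), TNFRSF19 (-2.24, SE 0.40, adjusted p = 0.133) and TLE4 (-0.86, SE 0.17, adjusted p = 0.151). NKD1 and LGR6 had at most 15 counts per BT549 library, and TNFRSF19 at most 5 per MDA-MB468 library. Their ratios in those lines rest on few counts. A secreted inhibitor outside this rule was chosen after its values were seen: SOSTDC1 had 2932 counts (60.3 CPM) in the MDA-MB468 parental control and 0 in the CE control, at least 887-fold lower when 3 counts are taken for the 0. It had 729 counts in treated parental cells, 4 in treated CE cells and 6 or fewer in BT549.

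Between the lines 66 of the 91 list genes were called (edgeR, 4 matched conditions), 26 higher and 40 lower in BT549, beside 56.8% of all genes, 27.3% higher and 29.5% lower. Each line's libraries share their cells, so this test compares these libraries. BT549 had SFRP2 at 13.7 to 97.7 CPM and RSPO2 at 33.5 to 39.5 CPM, where MDA-MB468 had at most 0.021 CPM of either. MDA-MB468 had WNT6 at 139.6 to 233 CPM and WNT10A at 28.6 to 47.1 CPM, where BT549 had at most 0.0395 CPM of either. Of 10 other WNT ligands tested, 7 were lower and 1 higher in BT549, the line in which WNT5B was higher.

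Among the genes with a pattern closest to DKK1, by Pearson's r of log2 CPM centred within each line over the 8 libraries, were LINC00862 (0.994), MPP3 (0.987), CAP1 (0.981) and ADORA2B (0.978). Of these, LINC00862 had an Acetalax log2 ratio of 3.72 in MDA-MB468 parental cells, and those of the other genes named were at most 1.23 there. Those closest to AXIN2 were RPE (0.996), LINC01132 (0.975), ATP5F1 (0.968), SAFB2 (0.968) and GLOD4 (0.968), of which LINC01132 had ratios of -2.56 and -1.83 in the MDA-MB468 pairs. Among the 10 genes, TCF7 and AXIN2 ran against each other (r = -0.91) and WNT5A and CTNNB1 together (r = 0.78). All these correlations rest on 8 libraries that share cell lines and controls and are given as a description.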

How the data were processed

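Per the paper's methods, the authors selected poly(A) RNA, made directional libraries, aligned the reads to hg19 with STAR (2.7.11b in the submitters' processing notes, another version in the methods) and deposited raw counts per gene from its GeneCounts option. The annotation and the strand column are not given in the sources used here, so genes overlapping on the other strand cannot be separated. The deposited counts have 58154 rows for 55679 identifiers. Repeats (1392 identifiers) had equal counts except for 3, where the row with the largest total was kept. The length column equals the gene span, so FPKM used merged exons of an hg19 GENCODE annotation.

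Conditions came from the sample labels, doses and times from the methods. Ratios are log2((CPM + 0.1)/(CPM + 0.1)) from total counts on genes. Tests used edgeR 4.0.16 (R 4.3.3), the quasi-likelihood test with TMM, filterByExpr and Benjamini-Hochberg adjustment at 0.05 over all genes, with pairs as blocks. With 1 library per condition, the 4 backgrounds or conditions served as replicates, with 3 residual degrees of freedom (2 for differences in response). Alternatives were DESeq2 1.42.0, other scalings, filters, pseudocounts of 1 and 0.01, and leaving out each pair. The 10 genes, the 118-gene list and the naming rule were chosen with earlier results of these data known. The rule named the list genes called by edgeR, at most 6 per direction, and where under 3 were called also the 3 genes with the largest smallest change over the 4 pairs, plus the 5 genes most like DKK1 and most like AXIN2. Names outside it are said to be so. For 1 gene covered by the rule, the result is not reported here.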

Additional observations from a re-analysis of the deposited data

Results flagged for a closer look

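Several genes had Acetalax or CE ratios that pointed one way in both pairs of MDA-MB468 and the other way in both pairs of BT549. With Acetalax, the mean log2 ratio of BT549 minus that of MDA-MB468 was -2.30 for WNT5A, -0.68 for SFRP1 and -0.55 for CTNNB1. The BT549 ratios of CTNNB1 lay near the median of all genes measured in those pairs. For CE against parental cells it was 1.18 for SFRP1 and 0.68 for TCF7. These differences were not tested, since the ratios had helped to choose the genes, and the pattern up in MDA-MB468 and down in BT549 with Acetalax was seen in 10% of all genes measured.

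Among the other genes of the pathway list, edgeR's test of the difference in Acetalax response between BT549 and MDA-MB468 called 4. The log2 difference was -1.42 for WNT7B, -1.26 for BMP4, -0.96 for SOX9 and 1.96 for FZD7.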

How the results depend on the processing

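No ratio of the 10 genes whose counting interval excludes 0 changed sign under any alternative scaling or pseudocount. With TMM, 4 in place of 2 genes were past 1 in size in the MDA-MB468 CE pair, as WNT5B (0.98 to 1.03) and TCF7 (0.94 to 1.01) crossed the line. With a pseudocount of 1 CPM, WNT5A in MDA-MB468 parental cells went from 1.07 to 0.95. As differences of log2(FPKM + 1), WNT5A was at 0.53 there and at -0.85 and -0.74 in the BT549 pairs, WNT5B at 0.76 in MDA-MB468 parental cells and AXIN2 at -0.82 in MDA-MB468 CE cells, all past 1 on the CPM scale, as was WNT5B between MDA-MB468 CE and parental controls (-2.60 to -0.82). Counts of called genes depended on the tool and filter, and the cause was not tested. For Acetalax over the 4 backgrounds, edgeR called 4 list genes, DESeq2 17 (13 higher, 4 lower) and edgeR on every gene with at least 1 count 25 (17 higher, 8 lower), and 984, 2930 and 3585 genes in all. Leaving out 1 background gave 0 to 5 list genes and 0 to 554 genes in all, the 0 without MDA-MB468 parental cells. For CE against parental cells the list had 0, 10 and 7 calls and all genes 23, 1010 and 446, with 0 to 10 among all genes when 1 pair was left out. For the response by line the list had 4, 8 and 13 and all genes 351, 941 and 1632. For the response by CE all genes tested gave 0, 0 and 3. The calls between lines stayed between 62 and 70 on the list with the 10 genes included, and between 9093 and 11889 among all genes. The levels of the 10 genes helped to choose them, so this count is no test of them. No paired analysis was possible because each condition has 1 library and the labels carry no replicate numbers, beyond the pairing of each library with its own background that the fits hold.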
